A study of Mus musculus with 28 samples.

Results

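The Hox genes of the 4 clusters were followed in sorted bone marrow stromal cells and in bone marrow mononuclear cells (MNCs) of wild-type and Flt3-ITD mice. Members were taken as every row of the gene table whose symbol was Hoxa, Hoxb, Hoxc or Hoxd followed by digits alone, which gave 39 of 25251 genes. They comprised 11 Hoxa, 10 Hoxb, 9 Hoxc and 9 Hoxd genes. RNA was sequenced from 28 libraries: endothelial cells (ECs; CD45-Ter119-CD31+) and mesenchymal stromal cells (MSCs; CD45-Ter119-CD31-CD166-Sca1+) sorted from collagenase-digested bone of the femur and tibia, and total MNCs, whose labels name them as marrow MNCs in 2 fields and as bone lining cells in another. All mice were C57BL/6 and 8 to 10 wk old, without any further treatment, and carried either the normal receptor gene (Flt3+/+) or, on both alleles, a knock-in of an internal tandem duplication into the mouse Flt3 gene (Flt3ITD/ITD), which causes a myeloproliferative disease. Each genotype had 5 EC, 5 MSC and 4 MNC libraries, made from 100 sorted cells (ECs and MSCs) or 200 cells (MNCs), so that cell number and population cannot be told apart in comparisons with MNCs. The labels do not say which libraries came from the same mouse, and p-values measure the spread between these libraries.

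Hox genes encode homeodomain transcription factors that give cells along the body axis and in the limb their positional identity. Within a cluster the genes lie in the order of their position numbers. During development, low numbers are used early and towards the head, and high numbers late and towards the tail and the tips of the limbs. Adult stromal cells keep parts of this code from their site of origin, and in marrow Hoxa9, Hoxa10 and Hoxb4 are known for their use in hematopoietic stem and progenitor cells. Hox proteins bind DNA together with the cofactors Pbx and Meis.

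In the mouse genome (GRCm38, GENCODE vM21 annotation) the Hoxa genes span chr6:52155590-52260880 on the minus strand, and the Hoxb genes chr11:96194316-96368256, the Hoxc genes chr15:102921103-103036852 and the Hoxd genes chr2:74668310-74765142 on the plus strand. The clusters are 105, 174, 116 and 96.8 kb long, respectively. Promoter windows from 250 bases before to 50 bases after a transcript start (RefSeq, GRCm38.p6) were at hand for 22 of the 39 members, as 24 sequences. Of these, 3 windows are shown because they belong to the leading Hoxa gene of ECs, the leading Hoxd gene of ECs and MSCs, and the leading Hoxa gene of MSCs. Hoxa10 has a second window (chr6:52240805-52241104), not printed, which held none of the motifs searched. Capitals mark, on either strand, matches to the TATA box (TATAAA), to the sequence bound by the factor NF-Y (CCAAT) and to the composite motif of Hox with Pbx (TGATNNAT). All other bases are in lower case.
Hoxa7 (chr6:52218524-52218823, minus strand): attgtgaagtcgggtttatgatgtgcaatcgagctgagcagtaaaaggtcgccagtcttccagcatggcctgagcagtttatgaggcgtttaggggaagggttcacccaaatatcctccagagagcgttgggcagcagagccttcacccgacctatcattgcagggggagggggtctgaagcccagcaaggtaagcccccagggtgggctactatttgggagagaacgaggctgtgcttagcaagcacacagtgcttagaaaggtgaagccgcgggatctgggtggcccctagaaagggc
Hoxd8 (chr2:74704365-74704664, plus strand): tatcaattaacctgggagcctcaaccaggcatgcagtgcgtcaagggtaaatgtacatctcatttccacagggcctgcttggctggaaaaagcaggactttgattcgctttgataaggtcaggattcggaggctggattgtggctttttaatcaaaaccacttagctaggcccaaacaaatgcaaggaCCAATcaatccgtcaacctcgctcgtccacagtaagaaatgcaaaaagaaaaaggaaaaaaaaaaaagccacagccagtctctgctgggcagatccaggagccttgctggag
Hoxa10 (chr6:52234890-52235189, minus strand): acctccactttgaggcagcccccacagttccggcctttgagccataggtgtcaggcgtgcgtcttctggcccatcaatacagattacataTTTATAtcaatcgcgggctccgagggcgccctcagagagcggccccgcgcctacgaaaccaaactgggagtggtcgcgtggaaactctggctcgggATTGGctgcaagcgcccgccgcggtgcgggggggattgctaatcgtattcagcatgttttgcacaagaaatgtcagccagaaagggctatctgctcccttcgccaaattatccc
CCAAT was present on either strand in 15 of 24 Hox windows (62.5%) and in 37.4% of all 32851 windows searched, and the Hoxd8 window and the Hoxa10 window shown each held a match. TATAAA was present in 4 Hox windows (16.7%), among them the Hoxa10 window shown, against 13.6% of all windows. TGATNNAT was found in 4 Hox windows (16.7%) and in 8.85% of all windows, and in none of the 3 shown. Hox windows had a median GC content of 57.7% and a median ratio of observed to expected CpG of 0.626, against 52.7% and 0.384 over all windows. The motifs are short and their matches are a description of these letters.

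Libraries held between 6377013 and 33880743 estimated counts. The population labels were borne out by lineage markers: summed RPKM of 10 endothelial genes was 1946 to 2786 in ECs, 5.50 to 24.9 in MSCs and 7.36 to 30.2 in MNCs, and that of 11 mesenchymal stromal genes was 29332 to 34222 in MSCs, 3682 to 6374 in ECs and 86.5 to 196 in MNCs. The stromal list therefore was not at 0 in ECs. Smooth muscle markers (3 genes) summed to 16.7 to 411 RPKM in ECs and 2.01 to 41.2 in MSCs. Osteoblast markers (5 genes) summed to 155 to 3319 in MSCs and 5.45 to 212 in ECs. Chondrocyte markers (3 genes) summed to 36.9 to 224 in MSCs and 0.01 to 1.11 in ECs. The part of such cells in the Hox values was not tested. Leukocyte and granulocyte transcripts were highest among stromal libraries in Flt3ITD/ITD EC library 2 (Ptprc, which encodes CD45, at 4.57 RPKM, and granulocyte genes summing to 29503) and Flt3ITD/ITD MSC library 5 (Ptprc 0.53, granulocyte genes 6039). Erythroid transcripts were highest in Flt3+/+ EC library 1 (4 markers summing to 2385 RPKM, with 1295 of granulocyte genes), which also had the highest Hoxd3 and Hoxa9 of the EC libraries. The counts of called and detected genes are given with and without these libraries.

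ECs and MSCs both carried a Hox program, and MNCs carried little of one. At a mean level of at least 1 RPKM (reads scaled to transcript length and library size), 16 Hox genes were detected in ECs, 12 in MSCs and 3 in MNCs. This is 41.0%, 30.8% and 7.69% of the members, where 49.4%, 49.5% and 47.7% of all genes reached the same level. Hoxa7 and Hoxa9 were detected in all 3 populations, and 6 genes (Hoxa5, Hoxa7, Hoxa9, Hoxa10, Hoxd8 and Hoxd10) in both ECs and MSCs. A further 10 were detected in ECs only (Hoxa2, Hoxa3, Hoxa4, Hoxa6, Hoxb3, Hoxb5, Hoxb6, Hoxb7, Hoxb9 and Hoxd3) and 5 in MSCs only (Hoxa11, Hoxc8, Hoxc9, Hoxc10 and Hoxc13). Hoxd11 reached the level in MSCs and MNCs. The remaining 17 stayed below it everywhere, and Hoxb1, Hoxb13 and Hoxc12 never exceeded 3 counts in any library. Some of these genes reached the level through 1 library. Without Flt3ITD/ITD EC library 2, which held 9.34 RPKM of Hoxb9, the EC mean of Hoxb9 was 0.651 in place of 1.52, and without Flt3+/+ EC library 1 those of Hoxd3 and Hoxa9 were 0.421 (from 1.04) and 0.788 (from 1.13). Hoxb7 in MSCs moved from 0.906 to 1.01 without Flt3ITD/ITD MSC library 5. In bulk RNA, fewer cells using a gene and less RNA per cell cannot be told apart.

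**Figure D1:**
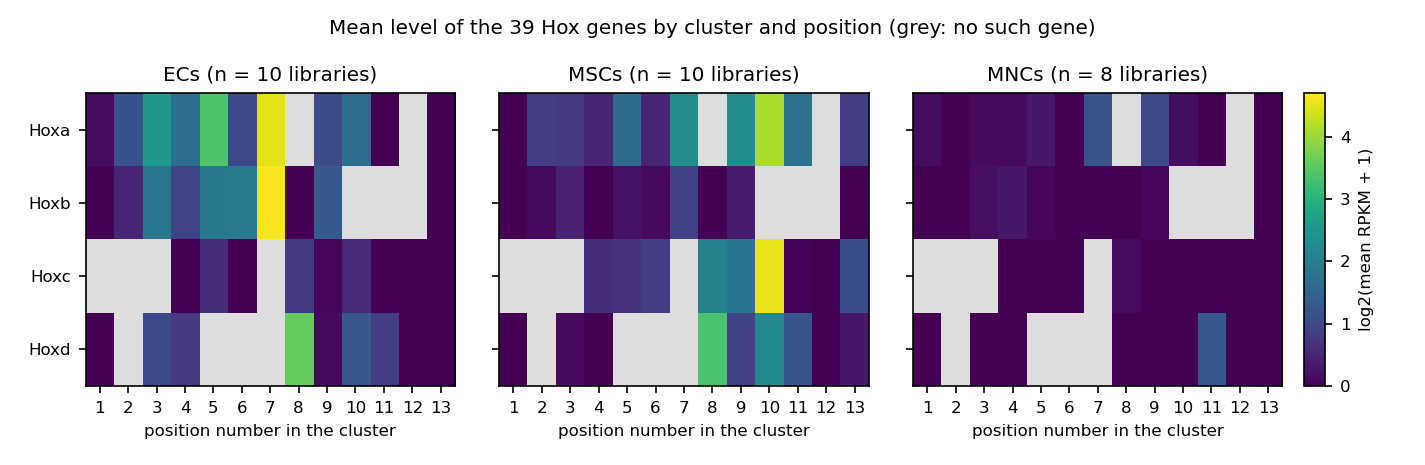
Mean level of each of the 39 Hox genes, drawn as log2(mean RPKM + 1), by cluster (rows) and position number (columns) in ECs (n = 10 libraries), MSCs (n = 10) and MNCs (n = 8); grey cells are positions with no gene. In ECs the brightest cells are Hoxb7 (24.05 RPKM) and Hoxa7 (21.5), in MSCs Hoxc10 (22.4) and Hoxa10 (16.4), and in MNCs Hoxd11, Hoxa7 and Hoxa9 lie between 1.03 and 1.44 RPKM.

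The part of each cluster in use differed between ECs and MSCs. In ECs the detected genes ran from position 2 to 10 of Hoxa, 3 to 9 of Hoxb and 3 to 10 of Hoxd, with no Hoxc gene. In MSCs they ran from position 5 to 11 of Hoxa, 8 to 13 of Hoxc and 8 to 11 of Hoxd, with no Hoxb gene. Several of these ends rested on few libraries. Among ECs, Hoxa2 was at 12.6 RPKM in Flt3+/+ library 3 and at 0 in the other 9. Hoxd10 was at 10.7 and 3.68 RPKM in 2 EC libraries and at 0.05 or less in the others. The EC means of Hoxb9 and Hoxd3 fell to 0.651 and 0.421 RPKM without 1 library each. Hoxc13 ranged from 0 to 5.09 RPKM in MSCs. Summed over all members, Hox RPKM was 64.4 to 135 in EC libraries (mean 96.1 ± 22.9 SD, n = 10), 55.9 to 107 in MSC libraries (80.8 ± 13.3, n = 10) and 2.49 to 8.65 in MNC libraries (5.16 ± 1.88, n = 8), so that the stromal populations overlapped and all MNC libraries lay below them. Hoxb genes summed to 9.72 to 94.8 RPKM in ECs and to 0.02 to 9.63 in MSCs, and Hoxc genes to 0.23 to 5.96 in ECs and 20 to 44.4 in MSCs. Neither range overlapped between ECs and MSCs. The Hoxd sums did overlap, at 2.06 to 32.8 RPKM in ECs and 0.77 to 30.4 in MSCs.

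By position, genes 4 to 8 made up 71.5 to 96.3% of Hox RPKM in EC libraries (mean 81.5%) and 16.4 to 50.2% in MSC libraries (27.5%). Genes 9 to 13 made up 1.29 to 17.7% in ECs (7.98%) and 46.6 to 82.8% in MSCs (70.1%). Position 7 (Hoxa7 and Hoxb7) alone accounted for 47.4% of the mean Hox RPKM of ECs, and position 10 (Hoxa10, Hoxc10 and Hoxd10) for 52.6% of that of MSCs. In MNCs, where the sum was small, positions 7, 9 and 11 held 26.2, 21.04 and 27.97%.

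**Figure D2:**
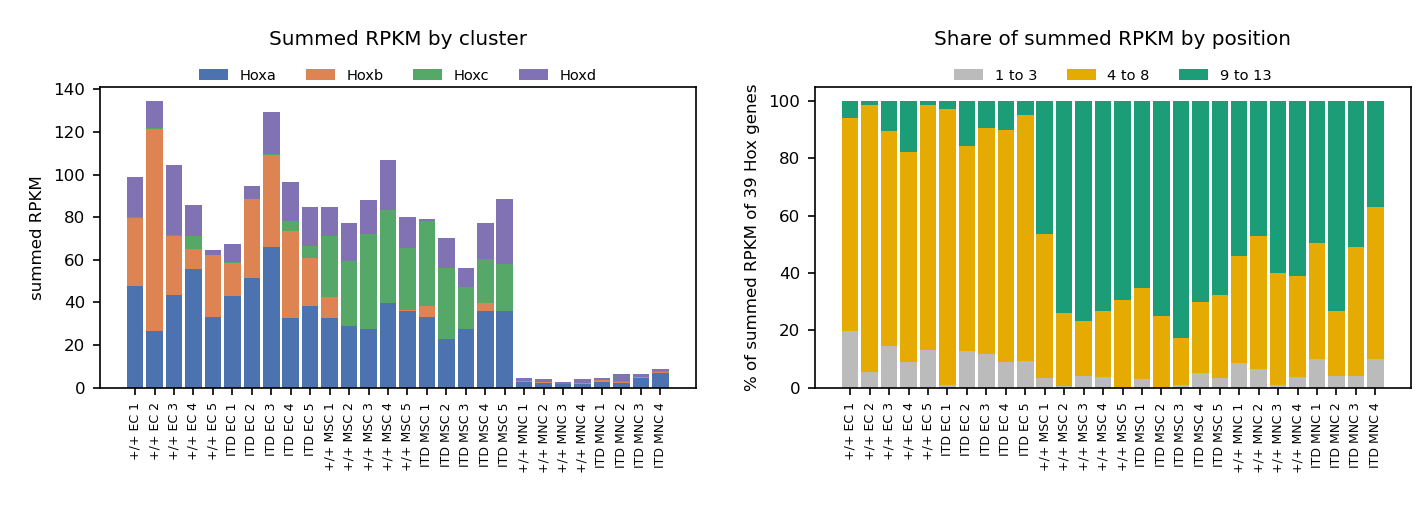
Summed RPKM of the Hox genes in each of 28 libraries by cluster (left) and the share of that sum, in percent, by position (right); +/+ is Flt3+/+ and ITD is Flt3ITD/ITD. Every EC bar is mostly positions 4 to 8 (71.5 to 96.3%), Hoxb is prominent in ECs and Hoxc in MSCs, and MNC sums do not exceed 8.65 RPKM.

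Hoxb7 led the levels of ECs at 24.05 ± 22.6 RPKM (SD, n = 10). The Flt3+/+ EC libraries held 22.4, 84.2, 17.8, 0.48 and 19.6 RPKM and the Flt3ITD/ITD EC libraries 13.4, 13.6, 20.4, 32.8 and 15.8. Thus 1 library stood far above and 1 far below the others. Among MSCs, Hoxb7 was at 7.29 in Flt3+/+ library 1 and 1.77 in Flt3ITD/ITD library 1 and at 0 in the other 8, and it was at 0 in all 8 MNC libraries. The endothelial cadherin gene Cdh5 had 8 and 0 counts in these 2 MSC libraries and 0 to 26 in the others. The mean EC level was 26.5-fold that of MSCs (adjusted p = 0.0194, edgeR quasi-likelihood test with Benjamini-Hochberg adjustment over all genes tested) and at least 185-fold that of MNCs, taking 3 counts per library as the limit that a count of 0 allows.

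Hoxa7, its paralog in the Hoxa cluster, followed at 21.5 ± 12.9 RPKM, a level that did not differ from that of Hoxb7 beyond their spread. The values were 20.97, 14.9, 23.1, 14 and 15.7 in Flt3+/+ ECs and 27.8, 42.6, 41.96, 3.13 and 10.96 in Flt3ITD/ITD ECs. MSCs held 0.09 to 11.4 RPKM (median 2.32) and MNCs 0.24 to 3.62 (median 1.035). The lowest 2 EC libraries lay within the range of MSCs, and the lowest also within that of MNCs. The EC mean was 5.49-fold that of MSCs (edgeR adjusted p = 0.00293) and 15.9-fold that of MNCs (edgeR adjusted p = 5.59e-05).

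Hoxd8 was at like mean levels in both stromal populations, with 11.1 ± 6.89 RPKM in ECs and 9.34 ± 6.01 in MSCs (log2 fold change 0.01, SE 0.83). Its values were 11.96, 12.3, 19.5, 12.3 and 0 in Flt3+/+ ECs, 5.86, 0.07, 16.2, 16.4 and 16.3 in Flt3ITD/ITD ECs, 13.2, 4.02, 5.71, 15.96 and 6.60 in Flt3+/+ MSCs, and 0.02, 12.3, 3.62, 15.4 and 16.5 in Flt3ITD/ITD MSCs. In each population at least 1 library was at or near 0 while the others lay above 3 RPKM. MNCs had at most 0.04 RPKM.

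Hoxa5, a gene known for its part in lung and axial skeleton patterning, came next in ECs at 9.56 ± 6.48 RPKM. The Flt3+/+ EC libraries held 7.10, 5.20, 5.94, 17.5 and 3.05 and the Flt3ITD/ITD EC libraries 14.7, 4.69, 2.64, 14.6 and 20.1. MSCs ranged from 0 to 4.23 (median 2.31) and MNCs from 0 to 0.63 (median 0.28). All EC libraries lay above all MNC libraries (40.4-fold in the mean, edgeR adjusted p = 5.95e-05), and the 4.46-fold difference from MSCs, whose libraries overlapped those of ECs, was called at adjusted p = 0.0553. The next levels in ECs were those of Hoxa3 (4.81 ± 2.84), Hoxb6 (2.9 ± 2.75), Hoxb5 (2.75 ± 2.20) and Hoxb3 (2.61 ± 2.87), which did not differ from each other beyond their SDs.

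MSCs were led by Hoxc10 at 22.4 ± 8.25 RPKM. This gene is known from the hindlimb and the lumbar region. The Flt3+/+ MSC libraries held 16.1, 18.96, 34.1, 35.6 and 22.4 and the Flt3ITD/ITD MSC libraries 24.1, 29.4, 17.04, 13.5 and 12.8. In ECs the gene was at 4.39 in Flt3+/+ library 4 and at 0.16 or less in the other 9, and in MNCs at 0.03 or less. Every MSC library exceeded every EC and MNC library, and the MSC mean was 47.9-fold that of ECs (log2 fold change -7.56, EC over MSC, SE 1.10, edgeR adjusted p = 1.25e-05; -9.94 without that EC library).

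Hoxa10 was second in MSCs at 16.4 ± 4.95 RPKM, and its range overlapped that of Hoxc10. It was 15.9, 16.9, 9.78, 25.2 and 14.2 in Flt3+/+ MSCs and 11.5, 12.8, 18.6, 15.9 and 23.6 in Flt3ITD/ITD MSCs, the narrowest relative spread of the leading genes. ECs held 0.68, 0.87, 0.03, 6.86 and 0 (Flt3+/+) and 0.07, 0.06, 9.5, 4 and 0.05 (Flt3ITD/ITD), all below the lowest MSC library. The MSC mean was 7.43-fold that of ECs (edgeR adjusted p = 0.0123) and 136-fold that of MNCs, which ranged from 0 to 0.30 (edgeR adjusted p = 6.26e-05).

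**Figure D3:**
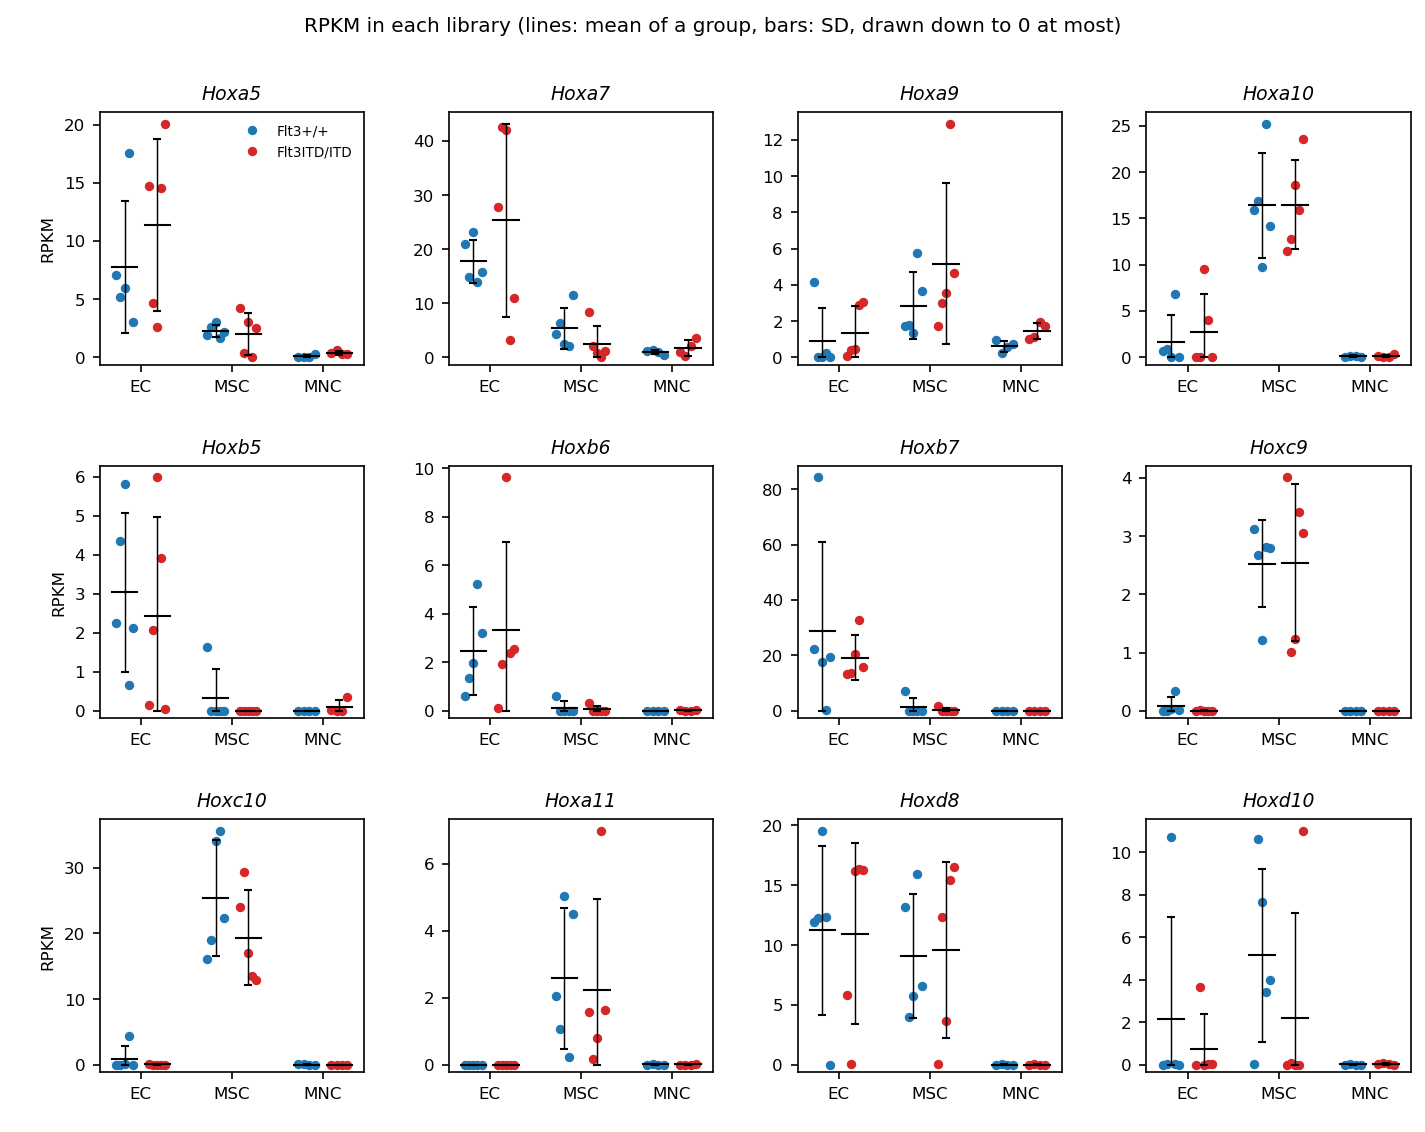
RPKM of 12 Hox genes in each library (points), by population and genotype (5 EC, 5 MSC and 4 MNC libraries per genotype), with group means (lines) and SD (bars, drawn down to 0 at most); each panel has its own linear scale. Hoxa10, Hoxa11, Hoxc9 and Hoxc10 are higher in every MSC library than in every EC library, while Hoxd8 and Hoxd10 have libraries near 0 in both.

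Over all 39 members, 28 passed the filter on low counts in the fit of the 28 libraries, among 16897 genes. Calls needed an adjusted p under 0.1 together with mean RPKM values at least 1 log2 unit apart. Between ECs and MSCs, 12 Hox genes were called higher in ECs (16.3% of all genes tested were) and 10 higher in MSCs (16.6% of all genes), with a median log2 fold change, EC over MSC, of -0.62 against -0.01 over all genes. Fits of 1 genotype, with fewer libraries, called fewer. Among Flt3+/+ libraries 6 were higher in ECs (11.7% of all genes) and 8 in MSCs (12.7%), and among Flt3ITD/ITD libraries 6 in ECs (11%) and 3 in MSCs (12%). Hoxa7 and Hoxc10 were called within both genotypes. Hoxb7 was not called among Flt3+/+ libraries (edgeR adjusted p = 0.218), nor Hoxa10 among Flt3ITD/ITD libraries (edgeR adjusted p = 0.186). Hoxa5 and Hoxa9 were called within neither genotype. In the fit of all libraries the calls divided by cluster. Of 7 Hoxb genes tested, 6 were higher in ECs and 0 in MSCs, and of 7 Hoxc genes, 0 were higher in ECs and 6 in MSCs. Hoxa gave 4 and 3 of 8, and Hoxd 2 and 1 of 6.

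Within the Hoxa cluster, the genes called higher in ECs (Hoxa3, Hoxa4, Hoxa5 and Hoxa7) had lower position numbers than those called higher in MSCs (Hoxa9, Hoxa10 and Hoxa11). Within Hoxd the same order held for Hoxd3 and Hoxd4 (ECs) and Hoxd9 (MSCs). Every MSC library lay above every EC library for 4 Hox genes (Hoxa10, Hoxa11, Hoxc9 and Hoxc10; 3.61% of all genes), and the reverse held for 0 (4.75% of all genes). Without Flt3ITD/ITD EC library 2 and Flt3ITD/ITD MSC library 5, 11 genes were called higher in ECs and 9 in MSCs, and without Flt3+/+ EC library 1, 12 and 10.

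The largest fitted differences were those of genes near 0 on one side. Hoxa11, which takes part in limb and uterus development, was at 0 in all 10 EC libraries and at 2.05, 1.06, 5.05, 0.22 and 4.49 RPKM in Flt3+/+ MSCs and 1.58, 0.16, 0.80, 6.98 and 1.63 in Flt3ITD/ITD MSCs, at least 28.9-fold higher in the mean (edgeR adjusted p = 2.10e-06). Its antisense transcript Hoxa11os, with which it shares 35.0% of its exon bases (800 of 2287), was likewise at 0 in ECs and MNCs and at 3.25 to 26.0 RPKM in MSCs. The libraries do not mark strand, and reads of the shared bases cannot be assigned to one or the other. Hoxc9 was at 1.02 to 4.01 RPKM in MSCs (median 2.81), at most 0.35 in ECs (edgeR adjusted p = 4.74e-06) and 0 in MNCs. Hoxc6 was at 0 to 2.45 RPKM in MSCs (median 0.295) and 0 in every EC library, at least 6.25-fold higher in the mean (edgeR adjusted p = 0.000742).

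On the EC side, Hoxb4, which is used in hematopoietic stem cells, had 0.85, 0.05, 1.92, 0.06 and 1.65 RPKM in Flt3+/+ ECs and 1.15, 2.14, 0.48, 0.03 and 1.18 in Flt3ITD/ITD ECs, whereas no MSC library exceeded 0.03 (edgeR adjusted p = 7.11e-06). Hoxd4 had 0 to 1.90 RPKM in ECs (median 0.56) and at most 0.01 in MSCs (edgeR adjusted p = 6.14e-05). Both genes were thus low in ECs and at or under 3 counts in each MSC library. Hoxb5 was at 0.06 to 5.99 RPKM in ECs (median 2.19) and, among MSCs, at 1.65 in Flt3+/+ library 1 and at 0 in the other 9 (16.6-fold, edgeR adjusted p = 0.00422). Among Flt3+/+ libraries alone this difference was not called (edgeR adjusted p = 0.284). Hoxb6 was at 0.12 to 9.62 in ECs (median 2.17) and 0.61 and 0.31 in library 1 of each MSC genotype, with 0 in the other 8 (31.5-fold, edgeR adjusted p = 0.00382).

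Library 1 of the Flt3+/+ MSCs therefore held Hoxb5, Hoxb6 and Hoxb7 together. Its Hoxb sum was 9.63 RPKM, against 0.04 to 0.28 in the other 4 Flt3+/+ MSC libraries. Its 10 endothelial markers summed to 20.4 RPKM, the highest of the Flt3+/+ MSC libraries (7.34 to 20.4) and far below the 1946 of the lowest EC library. The part of other cells in these values was not tested.

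Against MNCs, both stromal populations were higher in most Hox genes. ECs were higher in 21 of the 28 tested (23.1% of all genes were) and MNCs in 0 (22.0%), with a median log2 fold change of 4.16 (0.00 over all genes). MSCs were higher in 21 (22.2% of all genes) and MNCs in 1, Hoxb4 (22.0%), with a median of 4.62 (-0.02 over all genes). Every EC library lay above every MNC library for 4 Hox genes, Hoxa5, Hoxb6, Hoxb7 and Hoxd3 (9.12% of all genes), and every MSC library for 5, Hoxa10, Hoxa11, Hoxc8, Hoxc9 and Hoxc10 (9.31%). Hoxc8 was at 0.58 to 8.32 RPKM in MSCs (median 3.19) and at 0 to 0.19 in MNCs (31.3-fold, edgeR adjusted p = 5.20e-05). Hoxc9 exceeded MNCs at least 26.7-fold (edgeR adjusted p = 7.31e-07). Hoxd8, Hoxc10 and Hoxb6, which were called against MNCs in the populations that use them, had at most 0.04 RPKM in any MNC library. The 2 contrasts share the MNC libraries. Without Flt3ITD/ITD EC library 2 and Flt3ITD/ITD MSC library 5, 17 genes were higher in ECs and 20 in MSCs. Leaving out each of the 28 libraries in turn, Flt3+/+ EC library 1 among them, gave 17 to 21 higher in ECs and 17 to 23 in MSCs.

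Hoxb4 ran the other way between MSCs and MNCs. The Flt3+/+ MNC libraries held 0.06, 0.15, 0.03 and 0.38 RPKM and the Flt3ITD/ITD MNC libraries 0.41, 0.44, 0.33 and 0.12, against 0 to 0.03 in MSCs (edgeR adjusted p = 0.000147). These are levels well under 1 RPKM, from 98 counts in all over the 8 MNC libraries, and limma on log2(RPKM + 1) did not call the difference (-0.29 on that scale, adjusted p = 0.219).

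Over the MNC libraries of both genotypes, 3 genes reached a mean of 1 RPKM. Among Flt3+/+ MNCs the means were 1.28 (Hoxd11), 0.985 (Hoxa7) and 0.6125 (Hoxa9), so that only Hoxd11 reached it there. Among Flt3ITD/ITD MNCs they were 1.595, 1.72 and 1.45. Hoxd11 was highest at 1.44 ± 0.67 RPKM (1.45, 1.46, 0.72 and 1.49 in Flt3+/+, 1.12, 2.96, 1.26 and 1.04 in Flt3ITD/ITD), from 39 to 223 counts per library. Hoxa7 was at 1.35 ± 1.08 (1.15, 1.39, 0.92 and 0.48, then 0.91, 0.24, 2.12 and 3.62) and Hoxa9 at 1.03 ± 0.57, and none of the 3 differed from the others beyond its spread. Its neighbours in the cluster were near 0: Hoxd8, Hoxd9 and Hoxd10 had at most 3 counts in each MNC library. Hoxd12 and Hoxd13 had at most 4, in Flt3ITD/ITD library 2, the one highest in Hoxd11. Hoxd11 shares 455 exon bases (10.8%) with Gm28309, for which no values were given. Hoxd11 was also the only member with over 3 counts in each of the 28 libraries, at 0.81 ± 0.66 RPKM in ECs and 1.39 ± 0.81 in MSCs. The fitted difference between MSCs and MNCs was -0.002 on the log2 scale (SE 0.41), and ECs were lower than either by -1.25 on the log2 scale (edgeR adjusted p = 0.0168 against MSCs and 0.0158 against MNCs), short of the fold needed for a call. In fits of 1 genotype, ECs were lower than MSCs among Flt3+/+ libraries, at a mean of 0.342 against 1.74 RPKM (log2 fold change -2.52, SE 0.64, edgeR adjusted p = 0.0130), whereas among Flt3ITD/ITD libraries the means were 1.27 and 1.04 (0.09, SE 0.56, edgeR adjusted p = 0.945).

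**Figure D4:**
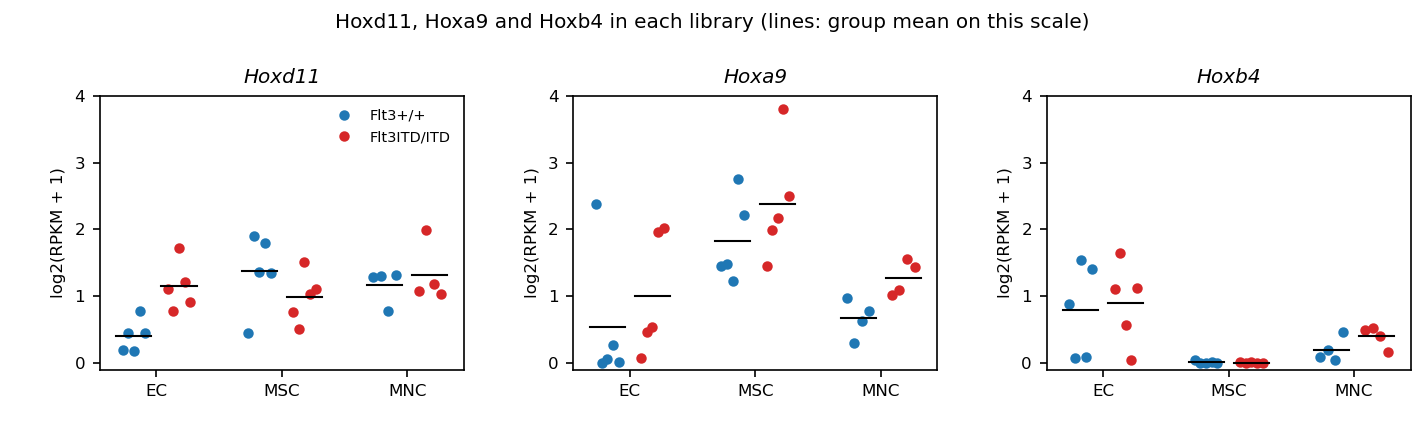
Level of Hoxd11, Hoxa9 and Hoxb4 in each library (points), as log2(RPKM + 1), by population and genotype (5 EC, 5 MSC and 4 MNC libraries per genotype), with group means on that scale (lines). Hoxd11 is above 0 in all 28 libraries, Hoxa9 is higher in the 4 Flt3ITD/ITD MNC libraries (1.03 to 1.94 RPKM) than in the 4 Flt3+/+ ones (0.23 to 0.96), and Hoxb4 is near 0 in MSCs.

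Hoxa9, the partner of Meis1 in myeloid leukemia, reached a mean of 1 RPKM in all 3 populations. In ECs it did so only with Flt3+/+ library 1, as the mean without that library was 0.788. MSCs had the highest mean, 4.01 ± 3.43 RPKM, with 1.75, 1.80, 1.33, 5.73 and 3.66 in Flt3+/+ and 1.73, 2.99, 3.52, 12.9 and 4.67 in Flt3ITD/ITD. ECs were split, with 4.18, 0, 0.04, 0.21 and 0.01 in Flt3+/+ and 0.05, 0.38, 0.45, 2.91 and 3.04 in Flt3ITD/ITD. The means of ECs and MSCs differed 3.56-fold (edgeR adjusted p = 0.0662), and MSCs exceeded MNCs 3.89-fold (edgeR adjusted p = 0.0642).

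Such splits between libraries of 1 group were common. Of the Hox genes that reached 100 counts in at least 1 library of a group, 11 of 18 in Flt3+/+ ECs, 13 of 17 in Flt3ITD/ITD ECs, 9 of 19 in Flt3+/+ MSCs and 10 of 17 in Flt3ITD/ITD MSCs had at most 3 counts in another library of that group (61.1, 76.5, 47.4 and 58.8%). Among all genes with mean counts in the range of these Hox genes, 35.1, 38.5, 22.4 and 29.6% did so. In Flt3+/+ and Flt3ITD/ITD MNCs, 0 of 1 and 0 of 2 Hox genes did. Among all genes that reached 100 counts in those groups, 1.95 and 1.56% did so. Hoxa2 was the plainest case, with 12.6 RPKM in Flt3+/+ EC library 3 and 0 in the other 9 EC libraries. Hoxd10 was at 10.7 in that same library, at 3.68 in Flt3ITD/ITD EC library 2 and at 0.05 or less in the other 8. In MSCs, Hoxd10 was at 0.04, 10.6, 7.66, 3.44 and 4.01 (Flt3+/+) and 0, 0.06, 0, 0 and 11.01 (Flt3ITD/ITD). A detected gene was thus often carried by a few libraries, and only Hoxa5, Hoxa7, Hoxb7, Hoxd3 and Hoxd11 exceeded 3 counts in all 10 EC libraries, as Hoxa9, Hoxa10, Hoxa11, Hoxc8, Hoxc9, Hoxc10 and Hoxd11 did in all 10 MSC libraries.

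Correlations between neighbouring genes were near 0 in the median. Pearson r was taken over the 10 libraries of a population, on log2(RPKM + 1) after the mean of each genotype was subtracted. In ECs the median r was -0.11 for 9 pairs next to each other in a cluster. It was 0.07 for 32 other pairs of 1 cluster and 0.02 for 79 pairs from different clusters. In MSCs the medians were 0.06 (6 pairs), -0.07 (13 pairs) and 0.03 (47 pairs). The points of each pair share libraries and depth.

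The comparison of genotypes asks whether Flt3-ITD hematopoiesis changes the Hox code of the stroma or of marrow cells. In no population was a Hox gene called between Flt3ITD/ITD and Flt3+/+ by edgeR: 0 of 16 tested in ECs (0.00810% of all genes were called), 0 of 16 for MSCs (0.0295%) and 0 of 5 for MNCs (0.0144%). An unadjusted p below 0.05 was reached by 2 in ECs (Hoxd11 and Hoxd3; 4.99% of all genes), 0 in MSCs (4.24%) and 0 in MNCs (10.4%), and DESeq2 called 1 in ECs, Hoxd11 (2.58% of all genes), 0 in MSCs (1.29%) and 0 in MNCs (2.14%). Libraries of the genotypes did not overlap for 1 tested Hox gene in ECs (Hoxd11; 1.14% of all genes), 0 in MSCs (0.914%) and 1 in MNCs (Hoxa9; 6.71%). Of the tested genes, 10 were nominally higher and 6 lower in Flt3ITD/ITD ECs, 5 and 11 in MSCs, and 5 and 0 in MNCs, with median log2 fold changes of 0.28, -0.32 and 0.80 against -0.01, 0.03 and -0.01 over all genes. The spread was wide, with a biological coefficient of variation of 0.984 in ECs, 0.871 in MSCs and 0.484 in MNCs.

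Hoxd11 was at 0.15, 0.36, 0.13, 0.71 and 0.36 RPKM in Flt3+/+ ECs and 1.15, 0.72, 2.30, 1.31 and 0.89 in Flt3ITD/ITD ECs. The genotypes did not overlap, although the closest values were 0.72 and 0.71. The log2 fold change was 1.91 (SE 0.59, p = 0.00814, adjusted p = 0.870, edgeR; DESeq2 adjusted p = 0.0256), and an exact two-sided permutation test of the RPKM gave p = 0.00794, the smallest that 5 against 5 allows, as 1 of 36 such tests of Hox genes in ECs. Without Flt3ITD/ITD library 2 the log2 fold change was 2.06. Pan-leukocyte markers (12 genes) summed to 39.4 to 174 RPKM in Flt3+/+ ECs and 67.0 to 841 in Flt3ITD/ITD ECs, and their part in the Hoxd11 values was not tested. In MSCs the values were 0.36, 2.73, 1.58, 2.49 and 1.54 (Flt3+/+) and 0.70, 0.43, 1.84, 1.05 and 1.16 (Flt3ITD/ITD), which overlapped (log2 fold change -0.68, SE 0.67). The genotype effects in ECs and MSCs differed by 2.60 on the log2 scale (SE 0.79), with an edgeR adjusted p of 0.167.

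Hoxd3 was lower in Flt3ITD/ITD ECs by fitted value (log2 fold change -2.34, SE 1.04, edgeR adjusted p = 0.98; exact two-sided permutation p = 0.278). The Flt3+/+ EC libraries held 6.59, 0.11, 0.49, 1.10 and 0.33 RPKM and the Flt3ITD/ITD libraries 0.32, 0.47, 0.18, 0.17 and 0.62. Without the first Flt3+/+ library the fold change was -0.67. Hoxa4 had the third lowest p in ECs, with 7.04, 2.89, 0, 6.03 and 2.80 against 0, 0, 3.15, 0 and 0.03 (log2 fold change -2.48, SE 1.84, edgeR adjusted p = 0.9998). It exceeded 1 RPKM in 4 Flt3+/+ libraries and 1 Flt3ITD/ITD library (exact two-sided permutation p = 0.127), and the fold change moved to -8.21 without Flt3ITD/ITD library 3.

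In MNCs, Hoxa9 was at 0.96, 0.23, 0.55 and 0.71 RPKM in Flt3+/+ and 1.03, 1.13, 1.94 and 1.70 in Flt3ITD/ITD libraries, with no overlap. The log2 fold change was 1.02 (SE 0.50, p = 0.0715, edgeR adjusted p = 0.511), and the exact two-sided permutation p of 0.0286 is the smallest that 4 against 4 allows, as 1 of 30 such tests in MNCs. Summed RPKM of 8 stem and progenitor marker genes also did not overlap, at 18.7 to 32.7 RPKM in Flt3+/+ and 43.6 to 109 in Flt3ITD/ITD MNC libraries, and granulocyte markers summed to 159906 to 193433 and 43071 to 174510. Their part in the Hoxa9 values was not tested. Hoxa5 was at 0, 0, 0 and 0.31 against 0.39, 0.63, 0.27 and 0.29 (log2 fold change 1.91, SE 1.21, edgeR adjusted p = 0.601; 6.72 without Flt3+/+ library 4) and Hoxb4 had a log2 fold change of 0.80 (SE 0.79, edgeR adjusted p = 0.755; 1.90 without Flt3+/+ library 4), with overlapping libraries for both.

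In MSCs the 3 lowest p-values belonged to Hoxa9 (log2 fold change 0.96, SE 0.67), Hoxc5 (-2.02, SE 1.67) and Hoxa7 (-1.06, SE 0.98), each at an edgeR adjusted p of 0.999. The Hoxa9 value rested on Flt3ITD/ITD library 4, at 12.9 RPKM, and was 0.21 without it. Hoxc5, which shares 166 exon bases with Hoxc10, was at 0, 1.38, 2.34, 0.47 and 0.66 RPKM in Flt3+/+ and 0, 0, 1.06, 0.09 and 0 in Flt3ITD/ITD MSCs, and its fold change was -5.20 without Flt3ITD/ITD library 3. Hoxa7 was at 4.34, 6.25, 2.54, 2.06 and 11.4 against 8.38, 2.10, 0.82, 0.09 and 1.18, and its fold change was -2.27 without Flt3ITD/ITD library 1. The leading genes of MSCs, Hoxc10 and Hoxa10, had log2 fold changes of -0.34 (SE 0.35) and 0.06 (SE 0.31), and those of ECs, Hoxb7 and Hoxa7, of -0.59 (SE 0.90) and 0.50 (SE 0.66). The smaller errors in MSCs go with the narrower spread of these genes there.

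**Figure D5:**
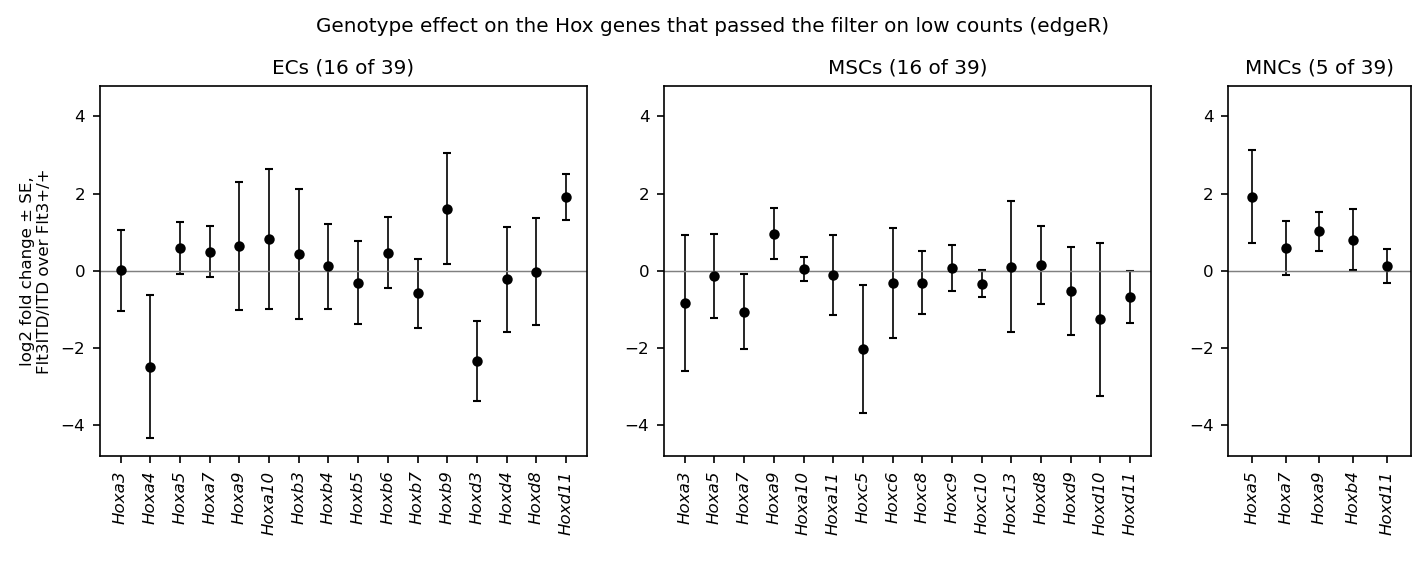
Log2 fold change of Flt3ITD/ITD over Flt3+/+ for the Hox genes that passed the filter on low counts in ECs (16 of 39), MSCs (16) and MNCs (5), with bars of 1 SE from the edgeR fit of each population. Most bars cross 0, Hoxd11 in ECs (1.91, SE 0.59) has a short bar above it, and none passed an adjusted p of 0.1.

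Tests of whether a genotype effect differed between 2 populations called 0 of 28 Hox genes in each pair. At an adjusted p below 0.1, edgeR called 0.379% of all genes for ECs and MSCs, 0.0118% for ECs and MNCs and 0.00592% for MSCs and MNCs. An unadjusted p below 0.05 was reached by 7, 3 and 2 Hox genes, against 10.6, 8.23 and 5.94% of all genes. DESeq2 called 3 for ECs and MSCs, Hoxa2, Hoxb3 and Hoxd11 (5.55% of all genes). It called 2 for ECs and MNCs, Hoxa2 and Hoxc5 (2.99%), and 2 for MSCs and MNCs, Hoxb3 and Hoxb5 (2.15%). Apart from Hoxd11, each had most of its counts in 1 library of a population. Among ECs, Hoxa2 had 325 counts in Flt3+/+ library 3 and 0 in the others. Hoxc5 had 376 in Flt3ITD/ITD EC library 5 and at most 2 in the other EC libraries. Among MSCs, Hoxb3 had 332 counts in Flt3ITD/ITD library 4 and at most 3 in the others. Hoxb5 had 39 in Flt3+/+ MSC library 1 and 0 in the other MSC libraries.

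Among 9 cofactor genes, the lowest p between ECs and MSCs was that of Meis1, whose product stabilizes Hox and Pbx proteins on DNA. It was at 0.05 to 0.25 RPKM in ECs (median 0.135), 0.80 to 22.5 in MSCs (6.21) and 2.02 to 11.9 in MNCs (5.25), so that every EC library lay below every library of both other populations (edgeR adjusted p = 4.65e-09 against MSCs and 7.71e-09 against MNCs). Meis2, Meis3 and Pknox2, from the same TALE class of homeobox genes, were also called higher in MSCs than in ECs, which makes 4 of 9 (16.6% of all genes), and 0 were called higher in ECs (16.3%). Against MNCs, where 22.0 to 23.1% of all genes were called in each direction, ECs were higher in 1 (Meis2) and lower in 4 (Meis1, Pbx2, Pbx4 and Pknox2), and MSCs were higher in 2 (Meis2 and Meis3) and lower in 2 (Pbx2 and Pbx4).

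Of 27 upstream regulators, which comprise Kmt2a and its partners, Polycomb genes, Cdx genes and retinoic acid receptors, 24 were tested between populations. Kat6a, an acetyltransferase gene, was called higher in ECs (16.3% of all genes were). Rarb, a retinoic acid receptor gene, was called higher in MSCs (16.6% of all genes). The other 22 were not called between the stromal populations, so the list was called less often than all genes in both directions. Against MNCs, 6 of 24 were higher in ECs (23.1% of all genes) and 3 lower (22.0%), and the same numbers in MSCs (22.2 and 22.0%), the higher ones being close to the share of all genes. In both contrasts Cbx6, Cbx7, Kdm6b, Rarb and Rarg were among those higher, and Cbx2 and Ezh2, both of Polycomb complexes, among those lower.

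The genes that flank the clusters were called in both directions. Of 13 in the table, 10 were tested. Against MNCs, with 22.0 to 23.1% of all genes called in each direction, 1 was higher in ECs (Mtx2) and 4 lower (Lnp, Skap1, Skap2 and Snx10), and 2 were higher in MSCs (Calcoco1 and Mtx2) and 3 lower (Skap1, Skap2 and Snx10). Between ECs and MSCs, Skap1 and Skap2 were higher in ECs (16.3% of all genes) and Lnp in MSCs (16.6%).

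Of the 6 antisense or intergenic transcripts of the clusters in the table, 3 were tested. Hoxd3os1 was called higher in ECs, at 2.91 to 12.6 RPKM against 0.11 to 3.89 in MSCs and at most 0.09 in MNCs (edgeR adjusted p = 0.00570 against MSCs). It shares 347 exon bases with both Hoxd3 and Hoxd4, which share 388 with each other. Hotair, from the Hoxc cluster, was at 0 to 5.88 RPKM in MSCs, at most 0.04 in ECs and 0.03 in MNCs (edgeR adjusted p = 0.000235, MSCs against ECs). Hotair and Hoxa11os were called higher in MSCs (16.6% of all genes), as were 6 Hoxc genes and Hoxa11. No gene of the cofactor, regulator, neighbour or antisense lists was called between genotypes.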

How the data were processed

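Estimated counts and RPKM were deposited by the authors in 1 table. Per the labels the RNA was polyA mRNA. Per the paper's methods, cDNA was amplified (SMARTer) and made into Nextera libraries, single-end reads of 51 bases were aligned with Bowtie to UCSC transcripts of mm10, reads with more than 1 place were discarded, and RSEM at its defaults gave counts and RPKM (tool versions are not given in the sources used here). No strand setting is given there. The RPKM values are the authors' own normalization to transcript length and library size.

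The deposited estimated counts were rounded to whole numbers and tested with edgeR 4.0.16 (R 4.3.3, TMM, filterByExpr, quasi-likelihood), with Benjamini-Hochberg adjustment over all genes tested. Genotypes were fitted within each population, and populations and interactions in 1 fit of 6 group means. A gene was called at an edgeR adjusted p under 0.1 together with mean RPKM values at least 1 log2 unit apart. The study used these thresholds but accepted the adjusted p of either DESeq2 or edgeR, so DESeq2 calls between genotypes are given beside those of edgeR. Alternatives used DESeq2 1.42.0, limma 3.58.1 on log2(RPKM + 1) and log2(RPKM + 0.1), other normalizations, filters and libraries. For single genes, exact permutation tests (two-sided) were run on RPKM (scipy 1.17.1). Counts of 0 were read against a floor of 3 counts, which covers counting error only, as reads carry no molecular identifiers.

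Named with values were the 2 highest genes of a cluster in a population at 1 RPKM or more, the 3 lowest genotype p-values of a population, Hoxa5, Hoxa9, Hoxa10 and Hoxb4 (qPCR assays of the study) and the 3 largest called differences in each direction between populations. Hoxa2 and the genes around Hoxb7 in 1 MSC library were chosen after their values were seen. The members and lists were chosen with earlier results of these data known. Gene positions came from GENCODE vM21, whose genome is that of mm10, and promoters from RefSeq. A member of the cofactor list is not reported here.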

Additional observations from a re-analysis of the deposited data

Results flagged for a closer look

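Each gene of the naming rule with a mean of at least 1 RPKM in the group, each cluster sum and the number of Hox genes over 3 counts were examined in every group of 4 or 5 libraries for 1 library lying apart from the others by Dixon's criterion. Of 78 groups examined, 22 had such a library. The criterion's nominal rate of 5%, or 1 in 20, holds for independent groups of normally distributed values. Here a single high library could bring a gene to the mean required, and the cluster sums contain the genes examined. The 22 groups therefore cannot be set against that rate, and they are given as a description. All values are RPKM. No member moved in opposite directions with genotype in every library of 2 populations.

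In Flt3+/+ ECs, library 4 was high in Hoxa5 (17.5, the others 3.05 to 7.10), Hoxa10 (6.86, the others 0 to 0.87) and the Hoxc sum (5.96, the others 0.24 to 0.31). Library 2 was high in Hoxb7 (84.2, the others 0.48 to 22.4) and so in the Hoxb sum (94.8, the others 9.72 to 31.9). Library 1 was high in Hoxd3 (6.59, the others 0.11 to 1.10) and library 3 in Hoxd10 (10.7, the others 0 to 0.04). In Flt3ITD/ITD ECs, library 3 was high in Hoxb6 (9.62, the others 0.12 to 2.57), library 5 in Hoxc5 (5.22, the others 0) and library 4 in Hoxc8 (4.84, the others 0.14 to 0.20).

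In Flt3+/+ MSCs, library 1 was high in Hoxb7 (7.29, the others 0) and the Hoxb sum (9.63, the others 0.04 to 0.28), and library 3 was low in Hoxc9 (1.22, the others 2.68 to 3.12). In Flt3ITD/ITD MSCs, library 1 was high in Hoxa7 (8.38, the others 0.09 to 2.10), library 4 in Hoxa9 (12.9, the others 1.73 to 4.67) and Hoxa11 (6.98, the others 0.16 to 1.63), and library 5 in Hoxd10 (11.01, the others 0 to 0.06).

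In Flt3+/+ MNCs, library 3 was low in Hoxd11 (0.72, the others 1.45 to 1.49), the Hoxb sum (0.08, the others 0.40 to 0.46) and the Hoxd sum (0.72, the others 1.48 to 1.57). In Flt3ITD/ITD MNCs, library 2 was high in Hoxd11 (2.96, the others 1.04 to 1.26) and the Hoxd sum (3.31, the others 1.04 to 1.29).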

How the results depend on the processing

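Of 116 counts recomputed under alternatives other than leaving out a library, 94 stayed within 1.5 times the value reported. Directions were followed only for genes with the lowest genotype p-values or the largest called differences, and none of these reversed. Other members could reverse. Hoxb5 was called higher in MSCs than MNCs among Flt3+/+ libraries (log2 fold change 6.83, edgeR adjusted p = 0.0886). Among Flt3ITD/ITD libraries it was called higher in MNCs (-4.88, edgeR adjusted p = 0.0974). Between genotypes, DESeq2 called 1 Hox gene in ECs (Hoxd11). Between ECs and MSCs, 6 genes were called higher in ECs among Flt3+/+ libraries alone and 6 among Flt3ITD/ITD libraries alone, and 3 higher in MSCs among Flt3ITD/ITD libraries alone, fits with fewer libraries. Against MNCs, 13 were higher in ECs and 9 in MSCs among Flt3ITD/ITD libraries alone, and limma on log2(RPKM + 1) called 13 higher in MSCs. Genes higher in MNCs than ECs numbered 1 with the adjusted p alone and 1 among Flt3+/+ libraries alone. Those higher in MNCs than MSCs numbered 3 with no filter, 0 with limma on log2(RPKM + 1) and 2 within either genotype. Hoxb4 was not called between MSCs and MNCs by that limma fit (-0.29, adjusted p = 0.219). DESeq2 called 3, 2 and 2 differences between genotype effects (ECs with MSCs, ECs with MNCs, MSCs with MNCs). Apart from Hoxd11, these were genes with most of their counts in 1 library of a population. Detected Hox genes in ECs numbered 5 at a mean of at least 3 RPKM and 5 with more than 3 counts in every library. In MSCs they numbered 20 at 0.5 RPKM, 7 at 3 RPKM and 7 with more than 3 counts in every library, and in MNCs 0 at 3 RPKM.

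Leaving out each library in turn, the genes higher in MNCs than ECs ranged from 0 to 1 and those higher in MNCs than MSCs from 1 to 2, and all other counts stayed within 1.5 times (11 to 13 higher in ECs and 9 to 12 in MSCs between the stromal populations). Leaving out Flt3ITD/ITD EC library 2 and Flt3ITD/ITD MSC library 5 together, an alternative chosen after seeing the data, gave 11 and 9 between ECs and MSCs, 17 and 0 between ECs and MNCs, and 20 and 1 between MSCs and MNCs, with 15 detected in ECs and 13 in MSCs. Deviations of same-numbered libraries correlated at -0.0716 to 0.0661 between genotypes (14 pairs) and -0.0545 to 0.0273 between populations (26 pairs). With the wide spread between libraries, such values cannot tell whether same-numbered libraries shared a mouse. With the replicate block, 0 genes were called between genotypes, and 13 and 12 between ECs and MSCs, 18 and 0 between ECs and MNCs, and 19 and 1 between MSCs and MNCs.

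Libraries of 100 cells limit what a count of 0 says about a low gene in 1 library, and 23 of 39 Hox genes had too few counts for a genotype test in ECs and in MSCs, and 34 in MNCs.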
